A study of Mus musculus with 4 samples.

Results

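The genes described here are 7 acute-phase genes, whose plasma proteins rise in infection or tissue injury: Fga, Fgb and Fgg, Saa3, Hp, Orm1 and Serpina3n. They were taken by symbol from the 57132 genes of each count table, and each symbol matched 1 gene. They were chosen by their UMI levels across kidney cell classes in these same libraries, where fibrinogen genes stood out in proximal tubule cells, so their levels by cell class are given as a description, with no test. The data are single-cell RNA libraries (10x Genomics) from the kidneys of 4 wild-type mice. All 4 mice belong to the same group, labelled CIAKI, for acute kidney injury induced by radiographic contrast medium. No untreated mouse is among the samples used here, so no value measures an effect of contrast. The agent, its dose, the time of collection, and the age and sex of the mice are not given in the sources used here.

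Fibrinogen is the soluble precursor of the fibrin clot. Its Aα, Bβ and γ chains, encoded by Fga, Fgb and Fgg, are joined by disulfide bonds into a hexamer, mostly in hepatocytes. In the liver these genes respond to interleukin 6 through the receptor chain gp130 and the transcription factor STAT3, with C/EBP factors acting on the same promoters. Saa3 encodes a serum amyloid A made largely outside the liver. Hp encodes haptoglobin, which binds free haemoglobin, and neutrophils store it in granules. Orm1 encodes orosomucoid, also called alpha-1-acid glycoprotein. Serpina3n encodes a secreted inhibitor of serine proteases.

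The 3 fibrinogen genes lie side by side on mouse chromosome 3, Fga between Fgg and Fgb. The 250 bases before the start of each gene are shown because these genes were detected in the same cells (below) and because IL-6-type response motifs have been described in such promoters. The sequences are from RefSeq on build GRCm38.p6, which held a promoter for 5 of the 7 genes. The build used for the counts is not given in the sources used here. Each is written 5′ to 3′ on the gene's strand, and capitals mark motif matches. The Fga window is chr3:83025903-83026152 on the plus strand, the Fgb window chr3:83049864-83050113 on the minus strand, and the Fgg window chr3:83007474-83007723 on the plus strand. The Saa3 window is chr7:46715677-46715926 on the minus strand.
Fga: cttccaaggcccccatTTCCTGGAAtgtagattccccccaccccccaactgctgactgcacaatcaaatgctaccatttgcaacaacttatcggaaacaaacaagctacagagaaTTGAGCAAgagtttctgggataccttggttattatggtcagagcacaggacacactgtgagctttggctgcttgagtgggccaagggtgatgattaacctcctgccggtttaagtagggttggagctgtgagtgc
Fgb: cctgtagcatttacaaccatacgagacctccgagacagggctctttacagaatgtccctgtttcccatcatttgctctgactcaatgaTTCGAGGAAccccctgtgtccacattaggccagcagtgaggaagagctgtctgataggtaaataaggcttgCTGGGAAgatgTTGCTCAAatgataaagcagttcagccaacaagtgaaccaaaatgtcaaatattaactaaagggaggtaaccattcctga
Fgg: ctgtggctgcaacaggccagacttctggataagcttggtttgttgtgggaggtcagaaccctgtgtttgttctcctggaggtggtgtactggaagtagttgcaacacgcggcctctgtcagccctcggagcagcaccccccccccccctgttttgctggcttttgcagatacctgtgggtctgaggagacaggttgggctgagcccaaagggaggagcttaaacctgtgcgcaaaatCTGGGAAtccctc
Saa3: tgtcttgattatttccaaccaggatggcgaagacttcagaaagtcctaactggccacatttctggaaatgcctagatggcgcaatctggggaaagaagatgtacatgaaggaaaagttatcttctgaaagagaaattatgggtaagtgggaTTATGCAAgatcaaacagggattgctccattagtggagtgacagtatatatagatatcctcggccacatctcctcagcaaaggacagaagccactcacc

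Both strands were searched for the STAT motif TTCNNNGAA, the type II IL-6 response element CTGGGAA and the C/EBP motif TTGCNNAA. Some of these motifs can overlap one another. The Fga window held a STAT match whose first base is at -234 from the start and a C/EBP match at -135. Fgb held all 3 motifs, at -162 for STAT, -91 for the IL-6 element and -80 for C/EBP. The Fgg window held a type II IL-6 element at -13 and no other match. Saa3 held a C/EBP match at -99. The window of Serpina3n, chr12:104406458-104406707 on the plus strand, held none of the 3. Among 32851 RefSeq promoters of 250 bases before to 50 after the start, 8.30% held the STAT motif, 11.1% the IL-6 element and 10.8% the C/EBP motif. A match describes letters only. No binding data were used.

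Libraries of mice 1 to 4 held 8790, 9368, 17312 and 12743 barcodes with 66762741, 64757026, 105436725 and 36831995 unique molecular identifiers (UMIs, counts of captured RNA molecules). Mouse 4 stood apart, with a median of 2077 UMIs per cell against 5549 to 5815 in the others and 13.7% ribosomal UMIs against 1.48% to 2.35%. Mouse 3 also stood apart: most of its proximal tubule, macrophage and neutrophil cells formed clusters of their own. Mouse 4 likewise made up most of some clusters. It gave 1708 of 1900 cells of macrophage cluster 6 and 844 of 1088 cells of proximal tubule cluster 13. It also gave 1991 of 2005 and 1261 of 1271 cells of T lymphocyte clusters 5 and 9. The labels put all 4 libraries in batch 1. Mice 1, 2 and 3 shared 23 to 54 cell barcodes pairwise, and mouse 4 shared 1 with mouse 2 and 0 with the others. Results that rest on mouse 3 are given with and without it. Cells were clustered without the 7 genes and named from marker genes, with "-like" marking such names.

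Proximal tubule-like cells numbered 408, 167, 710 and 1198 in mice 1 to 4. Their 15 summed markers, among them Lrp2, Slc34a1 and Slc5a12, reached 7486, 5982, 12391 and 3744 CPM, UMIs of the gene per 1000000 UMIs of the class. In thick ascending limb-like cells the same sum was 62.8 to 208 CPM. The proximal tubule-like class was made of clusters 13, 15 and 21, which passed the naming rule with 7, 8 and 9 markers. Clusters 13 and 15 held most of these cells in mice 1, 2 and 4. Cluster 21, led by Cyp24a1 and Krt20, held 511 of the 710 cells of mouse 3.

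All 3 fibrinogen genes were detected in proximal tubule-like cells of every mouse. Fga, for the Aα chain, was at 377, 558, 2130 and 193 CPM in mice 1 to 4, a mean of 815 ± 890 (SD, n = 4). Fgb, for the Bβ chain, was at 201, 279, 1867 and 62.6 CPM, a mean of 602 ± 848. Fgg, for the γ chain, was at 709, 681, 3446 and 478 CPM, a mean of 1328 ± 1415. Mouse 3 was highest and mouse 4 lowest for each chain. Without mouse 3 the means were 376, 181 and 623 CPM. Within cluster 15, which all 4 mice shared, Fga was at 306, 540, 770 and 258 CPM, Fgb at 140, 204, 673 and 66.7 CPM, and Fgg at 647, 621, 1027 and 509 CPM. In cluster 21 of mouse 3 the levels were 2725, 2357 and 4480 CPM. The excess of mouse 3 was therefore smaller inside the shared cluster than over the whole class.

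Thick ascending limb-like cells were the nearest large tubule class for comparison. There Fga was at 12.7, 18.9, 212 and 21.2 CPM, and Fgg at 17.7, 24.1, 227 and 28.3 CPM. Fgb was at 1.47, 1.76 and 15.1 CPM in mice 1 to 3. In mouse 4 no Fgb UMI was found in this class, where 3 UMIs would be 2.36 CPM. For each chain the proximal tubule-like level exceeded the thick ascending limb-like level in 4 of 4 mice. The fitted log2 differences were 3.90 for Fga, 6.92 for Fgb and 4.36 for Fgg, given as a description. T lymphocyte-like cells, which should not make fibrinogen, read 4.29, 12.4, 45.3 and 3.13 CPM for Fga, and 0.86, 4.12, 27.7 and 0.33 CPM for Fgb. Fgg there was at 12.0, 8.24, 66.3 and 5.43 CPM. The Fgb level of the thick ascending limb was below that of T lymphocyte-like cells in mice 2, 3 and 4, while Fga and Fgg were above it in all 4 mice. The 10 highest thick ascending limb-like cells held 60.3%, 86.0%, 31.5% and 92.6% of Fga UMIs in mice 1 to 4. They held 63.3%, 89.1%, 41.5% and 100% of Fgg UMIs. The UMIs of the other cells came to 5.05, 2.63, 145 and 1.57 CPM for Fga. For Fgg they came to 6.51, 2.63, 133 and 0 CPM. Without these 10 cells only mouse 3, and mouse 1 for Fga, lay above the T lymphocyte-like level, which was not trimmed.

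**Figure D1:**
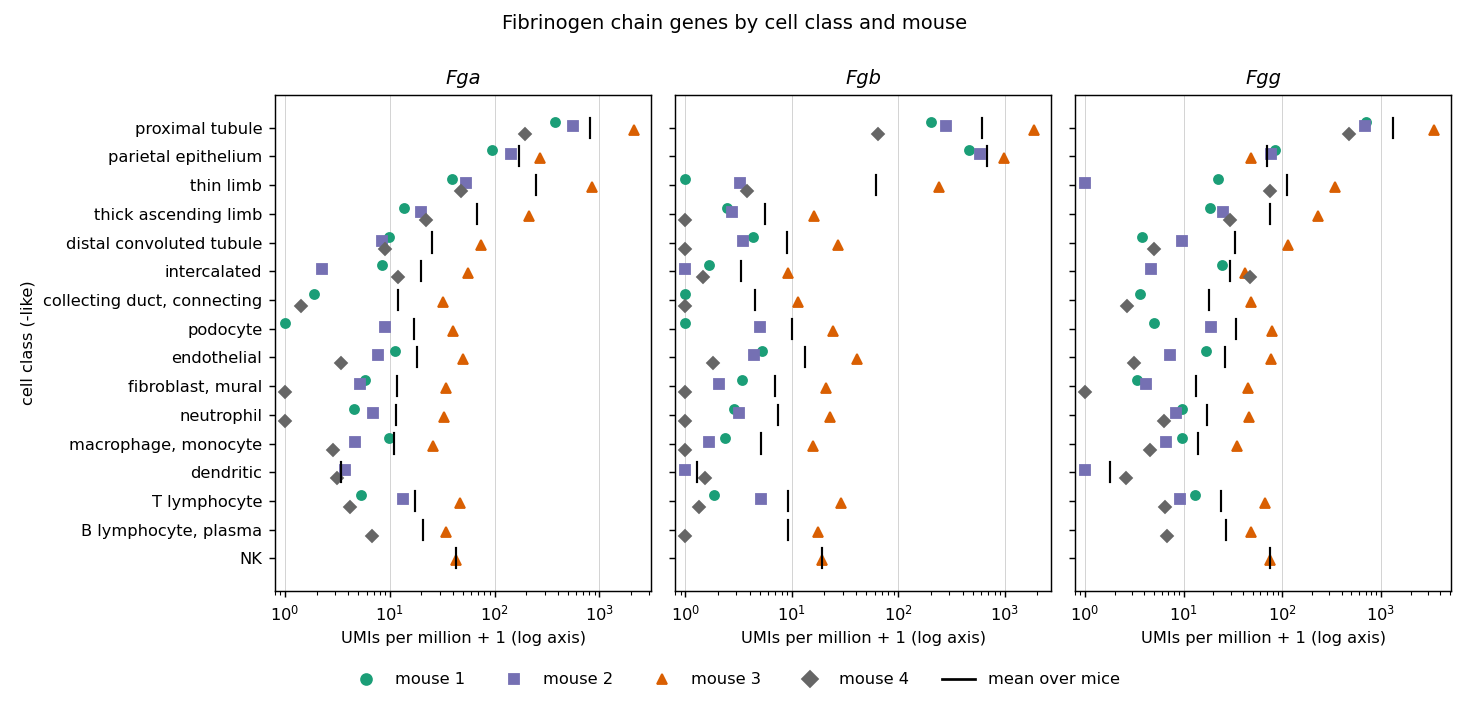
Fga, Fgb and Fgg in CPM (log axis, with a pseudocount of 1) by cell class, with 1 point per mouse. Proximal tubule-like cells are the highest class for Fga and Fgg, parietal-like cells exceed them for Fgb in mice 1 and 2, and mouse 3 lies above the other mice in most classes.

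The remaining epithelial classes differed by chain. Distal convoluted tubule-like cells, the segment of thiazide-sensitive salt uptake, had Fga at 8.82, 7.35, 73.3 and 7.99 CPM. Thin limb-like cells had Fga at 38.3, 52.1, 847 and 46.7 CPM, Fgb at 0, 2.26, 239 and 2.74 CPM, and Fgg at 21.3, 0, 345 and 74.1 CPM. Here only mouse 3 exceeded 100 CPM, from 45 cells. Intercalated-like cells, the acid-base cells of the collecting duct, had Fgg at 23.6, 3.71, 41.2 and 46.7 CPM. Mouse 4 was thus the highest for Fgg in that class, unlike in the proximal tubule.

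Parietal-like cells, named for the lining of Bowman's capsule, had a different order of chains. Fgb was at 455, 579 and 979 CPM in mice 1 to 3, a mean of 671 ± 274 (SD, n = 3), and mouse 4 had 1 such cell and gives no value. Fga was at 93.5, 144 and 272 CPM and Fgg at 84.3, 76.5 and 47.0 CPM. The parietal-like cells numbered 43, 31 and 108, and the 10 highest cells held 91.2%, 96.4% and 66.6% of the Fgb UMIs. In such small classes 10 cells are a large part, so these percentages are high partly by class size. An Fgb UMI was found in 41.9% to 54.8% of parietal-like cells, a mean of 48.3% over mice 1 to 3. The mean in proximal tubule-like cells was 31.8% over 4 mice. With every cell thinned to the same number of UMIs, the means were 20.9% and 21.0%. In mouse 2, 229 of 363 Fgb UMIs came from 1 cell. Proximal tubule markers summed to 1518, 1694 and 394 CPM in these cells, less than in proximal tubule-like cells and more than in thick ascending limb-like cells. Their part in the parietal-like values was not tested.

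Proximal tubule-like cells held 71.6%, 58.2%, 68.3% and 82.8% of the Fga UMIs of kept cells in mice 1 to 4. Barcodes removed by the mitochondrial limit or as doublets are outside the base of these shares. In mouse 3 the barcodes removed by that limit held 2050 Fga UMIs, against 8523 in proximal tubule-like cells. The proximal tubule-like share of Fgg in kept cells was 77.1%, 63.1%, 75.6% and 85.6%. For Fgb the share was 56.2%, 39.3%, 71.8% and 95.8%, with parietal-like cells holding 34.7%, 47.8% and 12.8% in mice 1 to 3. In mouse 2 more Fgb UMIs therefore came from parietal-like than from proximal tubule-like cells.

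The make-up of fibrinogen by chain differed between proximal tubule-like, thick ascending limb-like and parietal-like cells. In proximal tubule-like cells Fgb formed 15.6%, 18.4%, 25.1% and 8.53% of the fibrinogen UMIs, and Fgg 55.1%, 44.9%, 46.3% and 65.2%. In thick ascending limb-like cells Fgb formed 4.59% (95% exact binomial interval 2.12 to 8.54), 3.92% (1.08 to 9.74), 3.32% (2.58 to 4.19) and 0% (0 to 5.69). In parietal-like cells it formed 71.9% (67.3 to 76.2), 72.5% (68.3 to 76.3) and 75.4% (73.4 to 77.4). These intervals cover counting error only, and few cells carry much of the count. The Fgb share was thus lower in thick ascending limb-like than in proximal tubule-like cells in 4 of 4 mice, and higher in parietal-like cells in 3 of 3. A low Fgb share was not particular to the thick ascending limb. It was 2.13%, 7.89% and 0.82% in intercalated-like cells of mice 1, 3 and 4. In thin limb-like cells it was 0%, 4.17%, 16.7% and 2.22% in mice 1 to 4.

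Free RNA from broken cells can add fibrinogen UMIs to droplets of every class in a library. In mouse 3 the proximal tubule-like make-up was 28.6% Fga, 25.1% Fgb and 46.3% Fgg. The Fgb share of the 7 non-epithelial named classes of that mouse with 10 or more fibrinogen UMIs was 24.4% (95% interval 21.6 to 27.3) in endothelial-like, 22.0% (18.6 to 25.6) in neutrophil-like, 20.6% (17.9 to 23.5) in fibroblast- and mural-like and 19.9% (18.1 to 21.8) in macrophage-like cells. It was 19.9% (16.0 to 24.3) in T lymphocyte-like, 17.0% (11.3 to 24.1) in B lymphocyte-like and 13.6% (8.13 to 20.9) in NK-like cells. All 7 thus lay below the proximal tubule-like share and above the 3.32% of thick ascending limb-like cells, and the intervals of the endothelial-like and neutrophil-like cells include 25.1%. In mice 1 and 2 the Fgb share was 13.4% and 14.0% in neutrophil-like cells and 7.14% and 6.67% in macrophage-like cells, below the proximal tubule-like share of the same mouse. Thin limb-like cells of mouse 3 had 59.2% Fga, 16.7% Fgb and 24.1% Fgg over 419 UMIs. In mouse 4, Fgg formed 80.3% of the 122 fibrinogen UMIs of intercalated-like cells. The part of free RNA in these classes was not tested. Levels below those of T lymphocyte-like cells are read here as background.

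**Figure D2:**
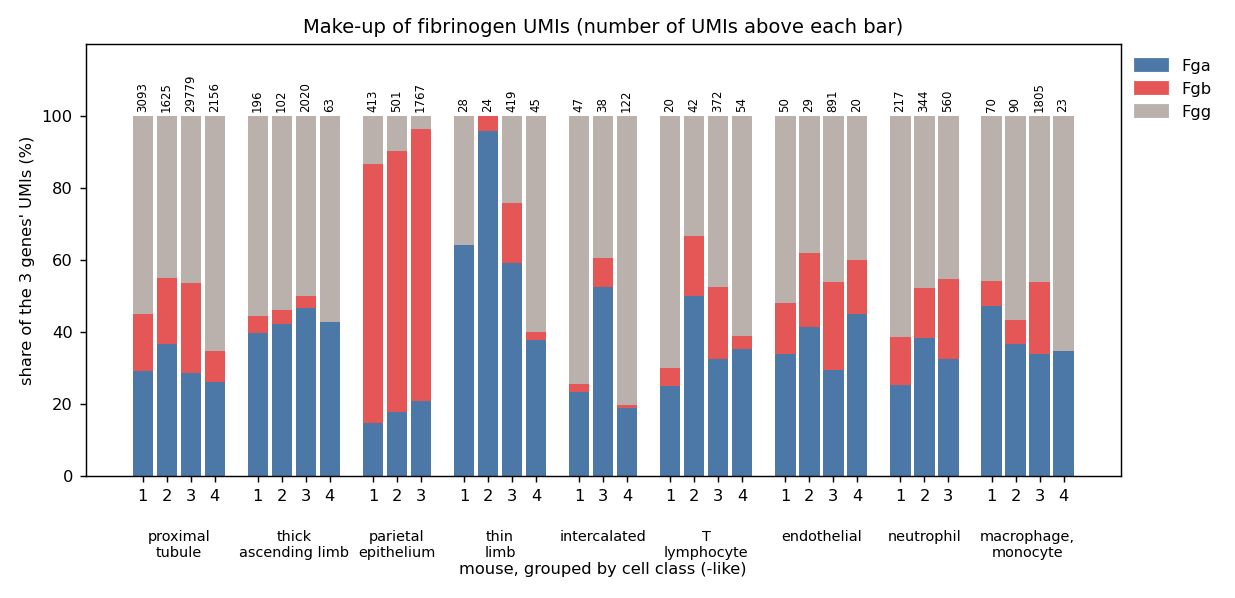
Percent of fibrinogen UMIs from Fga, Fgb and Fgg in each class and mouse with 10 or more such UMIs (stacked bars that sum to 100%). Fgb forms 71.9% to 75.4% in parietal-like cells, 8.53% to 25.1% in proximal tubule-like cells and 0% to 4.59% in thick ascending limb-like cells.

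Fibrinogen RNA was spread unevenly over proximal tubule-like cells. A UMI of Fga was found in 53.2% ± 27.0 of them (SD, n = 4), of Fgb in 31.8% ± 25.5 and of Fgg in 56.6% ± 22.1. In T lymphocyte-like cells the mean shares were 5.79%, 2.75% and 8.24%. With every cell thinned to 1000 UMIs, the proximal tubule-like shares were 34.5%, 21.0% and 39.3%. The thinned T lymphocyte-like shares were 1.77%, 0.94% and 2.45%, and the thick ascending limb-like ones 4.37%, 0.62% and 4.40%. The 10 highest proximal tubule-like cells held 50.8%, 76.9%, 21.4% and 34.8% of Fgb UMIs in mice 1 to 4. They held 34.3%, 57.3%, 12.8% and 18.3% of Fga UMIs. The level of mouse 2, with 167 such cells, thus rested on few cells.

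The 3 chains were found in the same proximal tubule-like cells. At 1000 UMIs per cell, Fga was found in 57.4%, 40%, 83.3% and 34.1% of the 47, 15, 335 and 44 cells with an Fgb UMI in mice 1 to 4. Among cells without one it was found in 21.0%, 23.8%, 58.9% and 13.3%. Fgg was found in 63.8%, 60%, 85.1% and 50% of Fgb-positive cells, against 25.1%, 23.0%, 60% and 24.7% of the rest. Havcr1, which encodes the injury marker KIM-1, showed no such common direction. It was found in 2.13%, 0%, 17.3% and 9.09% of Fgb-positive cells and in 7.46%, 8.73%, 22.5% and 2.18% of the rest. It was less often found with Fgb in mice 1 to 3 and more often in mouse 4, as a description of these cells. The cells with both numbered 1, 0, 58 and 4, so outside mouse 3 few cells set the direction. With a split by Fga, Havcr1 was found in 5.62%, 11.1%, 16.3% and 4.58% of positive cells. Among the rest it was found in 7.11%, 6.67%, 28.4% and 2.17%, so mouse 2 turned.

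Hepatocyte genes were measured as well, since the liver is the main source of fibrinogen, from a list of 13. In proximal tubule-like cells Alb (albumin) had 3, 2, 15 and 4 UMIs in mice 1 to 4, against 3093, 1625, 29779 and 2156 fibrinogen UMIs. Ahsg, F2 and Cps1 had 0 UMIs, and Serpina1c had 1 UMI in mouse 1. Apoa1 had at most 18, Rbp4 at most 18, Serpina1b at most 23, Apoa2 at most 42 and Fabp1 at most 60 UMIs in a mouse. The other 3 were well detected, with Apob at 246, 336, 81.7 and 158 CPM, Trf at 196, 161, 30.7 and 164 CPM and Ttr at 49.5, 65.4, 72.7 and 282 CPM. Of these 3, Apob and Trf were lowest in mouse 3, where fibrinogen was highest. The part of hepatocyte RNA in the fibrinogen values was not tested. Of the 13 genes, 5 passed the filter on low counts in the comparison with thick ascending limb-like cells. Of these, 4 were higher (Apob, Ttr, Fabp1 and Trf) and 0 lower, also at an unadjusted p under 0.05. DESeq2 gave an adjusted p for 9 of the 13 genes and called 5 higher and 0 lower. Apob was higher by 6.97 on the log2 scale (SE 0.29, adjusted p = 4.95e-08, edgeR) and Ttr by 6.35 (SE 0.32, adjusted p = 6.01e-08). The percent of all tested genes called higher there was 20.1.

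Among the named classes, Saa3 was highest in macrophage- and monocyte-like cells of each mouse. In macrophage- and monocyte-like cells it was at 406, 1150, 23940 and 81.9 CPM in mice 1 to 4, a mean of 6395 ± 11706 (SD, n = 4), or 546 without mouse 3. Cluster 11, made up of mouse 3 cells, reached 34916 CPM and cluster 8 of the same mouse 5964 CPM. Among mice 1 and 2, cluster 31 was highest, with 1369 and 6300 CPM. Neutrophil-like cells had 150, 361, 4009 and 50.1 CPM. Without mouse 3, a Saa3 UMI was found on average in 6.43% of macrophage- and monocyte-like cells and in 7.31% of neutrophil-like cells. In mouse 1, 10 of 665 macrophage- and monocyte-like cells held 81.8% of the 1518 Saa3 UMIs of that class. Collecting duct-like cells of mouse 3 had 942 CPM. Proximal tubule-like cells had 2.08, 6.54, 472 and 2.04 CPM against 4.29, 8.24, 202 and 2.80 CPM in T lymphocyte-like cells, so only mouse 3 exceeded that background. There, 10 cells held 67.0% of 1889 Saa3 UMIs and 1 cell alone 661. The UMIs of the other proximal tubule-like cells of mouse 3 came to 156 CPM. This is below its T lymphocyte-like level of 202 CPM, which was not trimmed. Saa3 shares 79.1% of aligned bases with Saa1 and 78.5% with Saa2, and how the authors' counting treated reads of such copies is not given here. Saa1 itself was at 313 CPM in proximal tubule-like cells of mouse 3 and at 0 to 4.08 CPM in the other mice.

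Hp was highest in neutrophil-like cells of each mouse. Neutrophil-like cells had 3018, 3086, 2750 and 2089 CPM, a mean of 2736 ± 455 (SD, n = 4), and 92.2% ± 0.46 of them held an Hp UMI. Macrophage- and monocyte-like cells had 660, 329, 2634 and 52.3 CPM, with mouse 3 highest through cluster 11 at 4211 CPM. Cluster 31 of mice 1 and 2 had 2217 and 1630 CPM. Proximal tubule-like cells had 67.8, 107, 93.7 and 5.44 CPM, and T lymphocyte-like cells 81.6, 88.9, 33.3 and 2.14 CPM. The proximal tubule-like Hp level was below that background in mouse 1 and within 3-fold of it in the others, and its 10 highest cells held 55.8%, 87.8% and 80.8% of the UMIs in mice 1 to 3. Parietal-like cells had 84.3, 30.3 and 394 CPM.

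Orm1 followed neutrophils of mouse 3. Neutrophil-like cells had 10.9, 14.3, 565 and 18.5 CPM, a mean of 152 ± 275 (SD, n = 4), or 14.6 without mouse 3. The neutrophils of mouse 3 formed cluster 16, led by the granule genes Camp, Ngp and Ltf together with Orm1, while clusters 0 and 1 held those of mice 1, 2 and 4. Proximal tubule-like cells had 1.66, 0.93, 44.7 and 0.68 CPM, and T lymphocyte-like cells 0, 0, 1.87 and 0 CPM. The transcripts of Orm1 and Orm2 are identical in 91.0% of 775 aligned bases, so their counts may not be fully separated. Orm2 was at 22.5 CPM in proximal tubule-like cells of mouse 3 and at 0 to 0.34 CPM in the others.

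Among the named classes, Serpina3n had its highest levels in endothelial-like cells of mice 1 and 2. Endothelial-like cells had 291, 465, 28.7 and 5.89 CPM, a mean of 198 ± 220 (SD, n = 4), and cluster 29 of mice 1 and 2 had 321 and 536 CPM. Fibroblast- and mural-like cells had 28.5, 40.3, 92.1 and 61.8 CPM. In mouse 3 it was found in several epithelial classes, at 272 CPM in parietal-like, 187 in podocyte-like, 140 in thin limb-like, 83.8 in thick ascending limb-like and 81.2 in distal convoluted tubule-like cells. The other mice had 2.44, 0.88 and 3.93 CPM in the thick ascending limb. Proximal tubule-like cells had 0.42, 0.93, 7.50 and 0 CPM. Endothelial marker genes also passed in clusters 2 and 4. These stayed unnamed because podocyte markers passed in them or genes of another lineage led them. Cluster 4 held 616 and 1434 cells of mice 1 and 2, more than the 321 and 399 of their endothelial-like class. In all unnamed cells Serpina3n was at 3.86 CPM on average without mouse 3. The endothelial-like class thus does not hold every such cell, and its levels do not stand for all cells with endothelial markers. Serpina3n and Serpina3g share 82.6% of aligned bases.

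**Figure D3:**
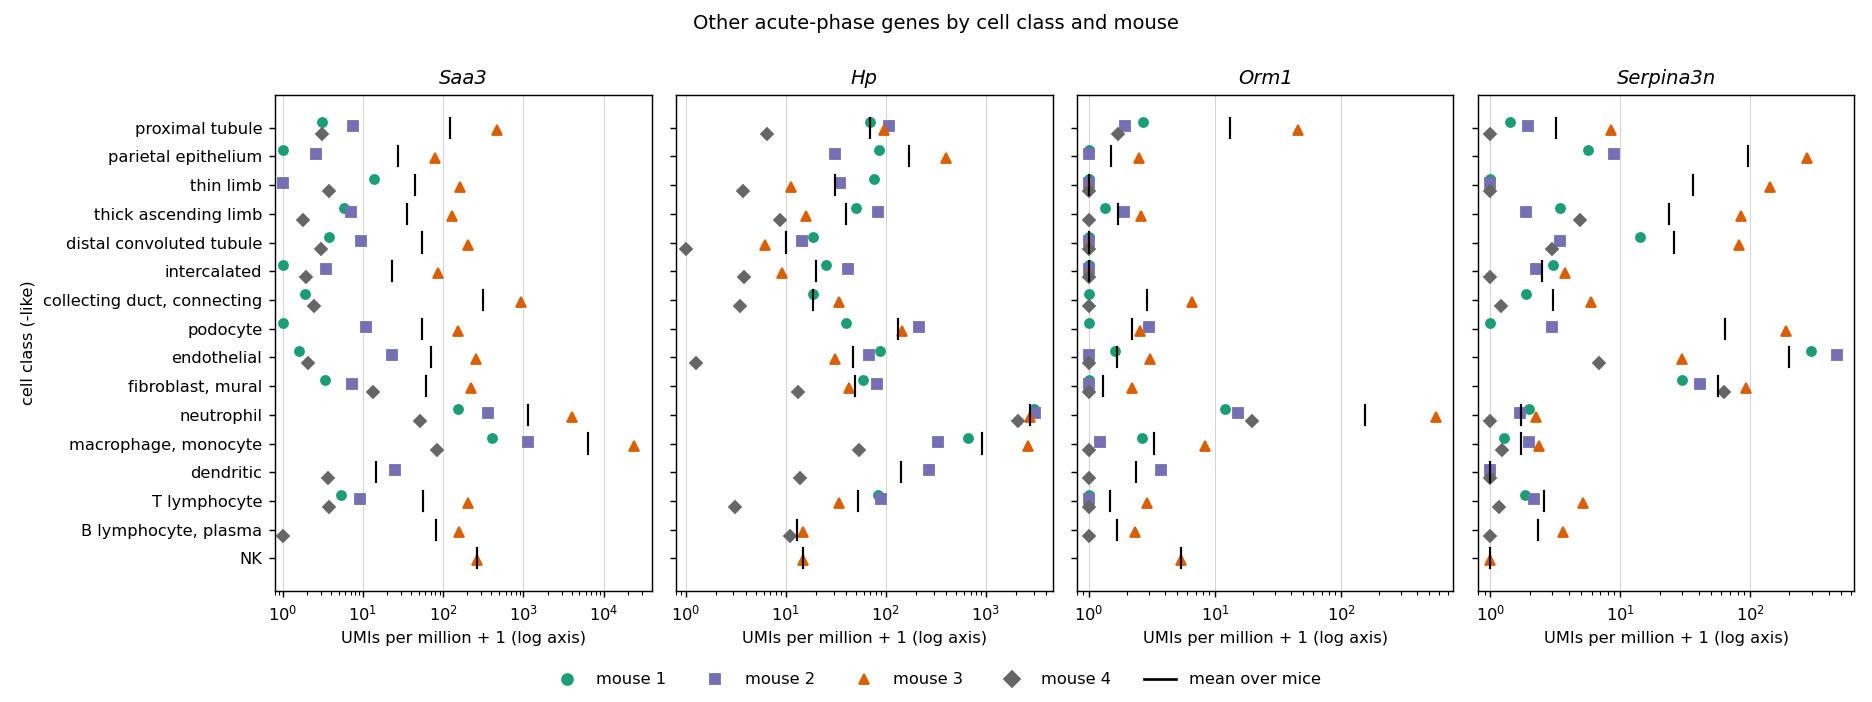
Saa3, Hp, Orm1 and Serpina3n in CPM (log axis, with a pseudocount of 1) by cell class, with 1 point per mouse. Hp is highest in neutrophil-like cells of all 4 mice, at 2089 to 3086 CPM, while the Saa3 and Orm1 values of mouse 3 lie far above those of the other mice.

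Genes with the most similar pattern were found by correlating log2(CPM + 1) over 45 class-by-mouse sums, among 12153 genes. These sums share libraries and depth, and the coefficients are descriptions. Summed fibrinogen was most like Sectm1b (r = 0.87), Slc51b (0.86), Ugt2b38 (0.85), Krt20 (0.84) and Mep1a (0.84). Saa3 was most like F10 (0.87), Gm5431 (0.86) and Il1rn (0.86). For Hp the nearest were Fbxl5 (0.91), Chil3 (0.88) and Fpr2 (0.88), and for Orm1 Camp (0.93), Ngp (0.90) and Ltf (0.87). Serpina3n was nearest to Osmr (0.88), the oncostatin M receptor, followed by Amigo2 (0.83) and Prickle2 (0.78).

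Proximal tubule-like cells with a Havcr1 UMI were compared with those without, within each mouse. Of the 7 genes, 6 passed the filter on low counts and 1, Saa3, passed the test, while Serpina3n was not tested. Over all 10720 genes tested with edgeR's quasi-likelihood test, 80 were higher and 204 lower in Havcr1-positive cells at an adjusted p under 0.05, or 2.65%. The Havcr1-positive cells numbered 65, 31, 275 and 60 in mice 1 to 4 and the negative cells 343, 136, 435 and 1138. Positive cells were deeper, with median UMIs of 6977, 8659, 5940 and 3972.5 against 3303, 4383, 2505 and 1713, so a Havcr1 UMI was also easier to find in them. With every cell thinned to 1000 UMIs before the split, 4099 genes were tested, of which 4 were higher and 167 lower (4.17%), so the higher calls fell from 80 to 4. Without the mouse as a block, 1 gene was called.

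Fibrinogen levels were not shown to differ between the sets. Fga was at 441, 1080, 2070 and 258 CPM in Havcr1-positive cells and 354, 361, 2193 and 187 CPM in negative cells. It was higher in positive cells of mice 1, 2 and 4 and lower in mouse 3, and the ranges overlap. The log2 difference was 0.39 (SE 0.21, adjusted p = 0.363), and -0.67 with thinned cells. Fgb was at 148, 598, 1410 and 117 CPM against 220, 160, 2352 and 57.4 CPM, a log2 difference of 0.13 (SE 0.29, adjusted p = 0.876). Fgb was thus higher in mice 2 and 4 and lower in mice 1 and 3. Fgg was at 830, 1302, 3268 and 701 CPM against 665, 448, 3634 and 457 CPM, a log2 difference of 0.39 (SE 0.21, adjusted p = 0.352). With thinned cells these were -0.64 for Fgb and -0.48 for Fgg, so no direction holds across both settings.

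Saa3 was at 0, 10.3, 710 and 3.92 CPM in Havcr1-positive cells and 2.84, 5.15, 220 and 1.86 CPM in negative cells. The log2 difference was 1.35 (SE 0.32, adjusted p = 0.0159), higher in 3 of 4 mice. This call rested on mouse 3, without which Saa3 did not pass the filter, and on few of its cells. Of 1463 Saa3 UMIs in its Havcr1-positive cells, 10 cells held 81.4% and 1 cell held 661. Without the 10 highest cells of each set, mouse 3 had 132 CPM in positive and 160 CPM in negative cells. The call was lost with DESeq2 (0.59, adjusted p = 0.686), and the direction turned with doublets kept (-0.11, adjusted p = 0.905) and with thinned cells (-0.74, adjusted p = 0.600).

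Hp was at 35.7, 13.7, 143 and 0 CPM in Havcr1-positive cells and 79.5, 143, 41.7 and 5.96 CPM in negative cells. It was lower in mice 1, 2 and 4 and higher in mouse 3, a log2 difference of -0.34 (SE 0.41, adjusted p = 0.730). Without mouse 3 it was -2.02 (adjusted p = 0.000480). Neutrophil markers moved the same way in those mice: their 10 summed genes were at 790, 468, 492 and 15.7 CPM in positive and 1816, 2824, 1520 and 47.7 CPM in negative cells, lower in 4 of 4 mice. Their part in the Hp values was not tested. Orm1 was at 6.22, 3.42, 52.4 and 0 CPM against 0, 0, 36.6 and 0.75 CPM, a log2 difference of 0.73 (SE 0.45, adjusted p = 0.419), higher in 3 of 4 mice.

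**Figure D4:**
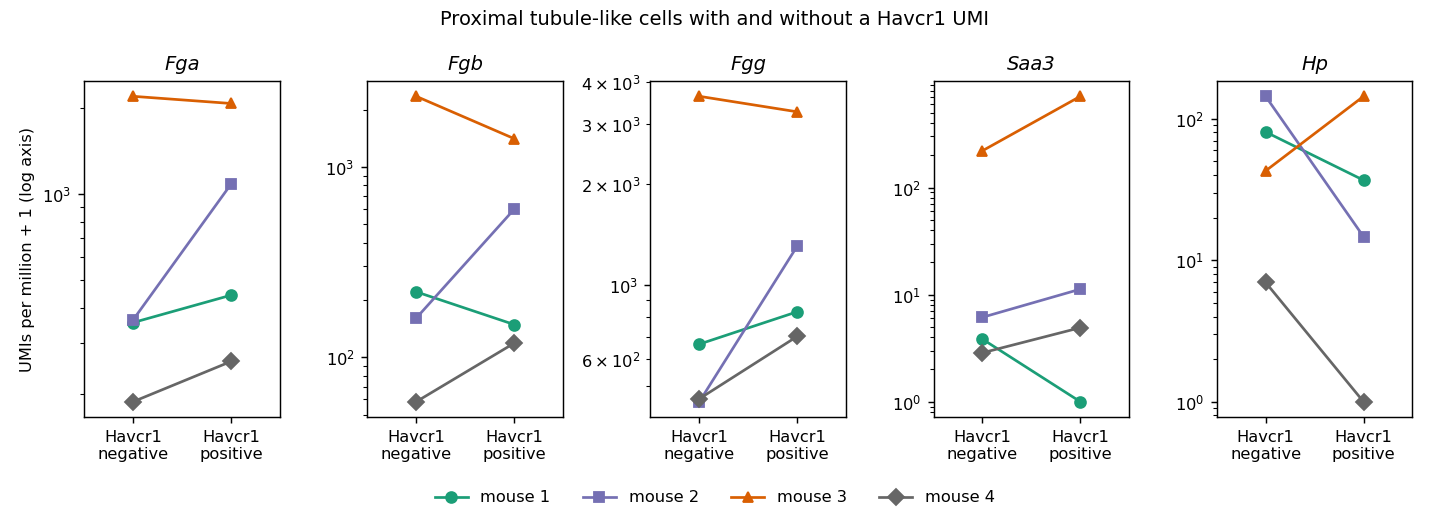
Levels of Fga, Fgb, Fgg, Saa3 and Hp in Havcr1-negative and Havcr1-positive proximal tubule-like cells in CPM (log axis, with a pseudocount of 1), with a line joining both sets of each mouse. The lines of Fga, Fgb and Fgg do not all slope the same way, and the mouse 3 line of Saa3 rises from 220 to 710 CPM.

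Genes of the wider acute-phase and fibrinogen pathways were read from the same fits over all genes. Between proximal tubule-like and thick ascending limb-like cells, 2594 of 12926 genes were higher (20.1%) and 2491 lower (19.3%), 39.3% in all (edgeR, adjusted p under 0.05), with a median log2 difference of 0.01. The other acute-phase genes numbered 26, of which 14 passed the filter, 5 were higher and 3 lower, with a median of 0.42. Cp, the copper-carrying ceruloplasmin, was higher by 4.19 on the log2 scale (SE 0.39, adjusted p = 6.46e-06), at 67.4, 82.2, 621 and 29.6 CPM against 2.61, 2.19, 23.4 and 7.07 CPM. C3, the central complement component, was higher by 3.68 (SE 0.35, adjusted p = 7.48e-06). Lcn2, the tubule injury protein NGAL, fell by 4.46 (SE 0.53, adjusted p = 4.09e-05), at 95.7, 91.6, 1119 and 92.9 CPM against 1377, 1467, 9142 and 8609 CPM. Mt2, a metallothionein, fell by 4.51 (SE 0.58, adjusted p = 7.59e-05). C4b, Cd14 and Saa1 were also higher and Mt1 lower, genes outside the rule for named genes and listed after their values were seen. Acute-phase genes were thus called in both directions between these segments.

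Of the 32 genes of the IL-6 family, STAT3 and C/EBP pathway, 29 were tested, with 6 above and 6 below the thick ascending limb and a median of -0.11. Hnf4a, a transcription factor of liver and proximal tubule, was higher by 6.23 (SE 0.32, adjusted p = 7.25e-08). It was at 196, 205, 76.7 and 96.6 CPM against 1.14, 2.19, 1.80 and 1.57 CPM. Lifr, the receptor for leukaemia inhibitory factor, fell by 1.84 (SE 0.24, adjusted p = 8.87e-05) and Socs3, the feedback inhibitor of STAT3 signalling, by 1.82 (SE 0.38, adjusted p = 0.00282). The transcription factor and the receptor and feedback genes named here thus lay on opposite sides.

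Values of a few further genes of this pathway, picked after they were seen, were as follows. Il6 was at 14.3, 0.53, 276 and 12.4 CPM in fibroblast- and mural-like cells of mice 1 to 4 and at 0, 0, 1.00 and 0 CPM in proximal tubule-like cells. Osm, which encodes oncostatin M, was at 1245, 1277, 932 and 665 CPM in neutrophil-like cells. Its receptor gene Osmr was at 8.74, 11.2, 69.7 and 4.08 CPM in the proximal tubule and at 3.26, 7.02, 168 and 4.71 CPM in the thick ascending limb. Mouse 3 was highest for Il6 in fibroblast- and mural-like cells and for Osmr in both tubule classes, and second lowest for Osm in neutrophil-like cells. Whether these genes bear on the fibrinogen levels was not tested.

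Of 20 coagulation and fibrinolysis genes, 13 were tested between proximal tubule and thick ascending limb, with 6 higher, 2 lower (Plau and Pros1) and a median of 1.13. Tfpi, the tissue factor pathway inhibitor, was higher by 3.75 (SE 0.69, adjusted p = 0.00106), at 4.16 to 7.83 CPM against 0 to 1.32 CPM. F5 (coagulation factor V) was higher by 3.23 (SE 0.54, adjusted p = 0.000529) and F3 (tissue factor) by 2.69 (SE 0.50, adjusted p = 0.00112). Plau, the urokinase that activates plasminogen, fell by 2.74 (SE 0.43, adjusted p = 0.000359). F2, which encodes the thrombin that cuts fibrinogen, was at 0 as given above. Of 22 receptors and protease targets of acute-phase proteins, 17 were tested, with 5 higher (Itga5, Itgb3, Tlr2, Icam1 and Cd36), 2 lower (Scarb1 and Itgav) and a median of 0.70. Pros1, Icam1, Cd36 and Itgav are outside the rule for named genes. Itga5 and Itgb3, integrin chains that bind fibronectin and fibrinogen, were higher by 1.91 (SE 0.44, adjusted p = 0.00454) and 1.73 (SE 0.52, adjusted p = 0.0202). Both calls were lost without mouse 1 (1.63, adjusted p = 0.0594, and 1.64, adjusted p = 0.0719), and that of Itgb3 also with doublets kept (0.87, adjusted p = 0.0761). Tlr2, a receptor of serum amyloid A, was higher by 1.43 (SE 0.32, adjusted p = 0.00373), and Scarb1, a lipoprotein receptor that also takes up serum amyloid A, fell by 2.55 (SE 0.48, adjusted p = 0.00124).

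All 16 proximal tubule injury genes were tested, with 6 higher and 6 lower and a median of 0.31. Krt20 was higher by 6.70 (SE 0.32, adjusted p = 4.95e-08), at 25.8, 31.8, 495 and 77.2 CPM against 0.33, 0.44, 3.37 and 0.79 CPM. Havcr1 was higher by 6.67 (SE 0.30, adjusted p = 4.95e-08), at 107, 111, 321 and 35.0 CPM, and Plin2, a lipid droplet coat protein, by 5.93 (SE 0.34, adjusted p = 1.21e-07). Cd24a fell by 5.51 (SE 0.26, adjusted p = 4.95e-08). In proximal tubule-like cells Havcr1 and Krt20 were, as fibrinogen was, highest in mouse 3. Plin2, at 2109, 2707, 2285 and 4833 CPM, was highest in mouse 4, and Cd24a, at 20.8, 17.8, 16.7 and 9.53 CPM, in mouse 1.

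Within the proximal tubule, fewer genes of these lists were called between Havcr1-positive and Havcr1-negative cells, where 0.746% of all genes were higher and 1.9% lower. Of 13 other acute-phase genes tested with edgeR, 0 were higher and 1 lower, against 2 and 3 at an unadjusted p under 0.05. DESeq2 gave an adjusted p for only 6 genes of this list and called 0 higher and 1 lower. Lcn2 fell by 1.11 (SE 0.23, adjusted p = 0.00529), a call lost with thinned cells (-0.91, adjusted p = 0.291). Of 27 IL-6 pathway genes tested with edgeR, 0 were higher and 2 lower, against 2 and 5 at an unadjusted p under 0.05. DESeq2 gave an adjusted p for only 7 of these pathway genes and called 0 higher and 2 lower. Il1b, a cytokine gene, fell by 1.40 (SE 0.26, adjusted p = 0.00158), at 379, 95.7, 26.7 and 3.92 CPM against 462, 549, 69.6 and 7.82 CPM. Its call was lost with a mitochondrial limit of 20% (-0.89, adjusted p = 0.178) and with thinned cells (-0.82, adjusted p = 0.384). The neutrophil markers, lower in positive cells of 4 of 4 mice, moved with Il1b, and their part was not tested. Hnf4a fell by 0.71 (SE 0.18, adjusted p = 0.0284), a call lost without mouse 1 (-0.69, adjusted p = 0.146), mouse 3 (-0.56, adjusted p = 0.211) or mouse 4 (-0.70, adjusted p = 0.0874). It was also lost with thinned cells (-0.86, adjusted p = 0.381) and without cluster 21 (-0.61, adjusted p = 0.102).

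Of 12 coagulation genes tested in this split, 2 were higher and 1 lower. F5 fell by 2.48 (SE 0.47, adjusted p = 0.00204), and Plau and F3 were higher by 0.99 (SE 0.27, adjusted p = 0.0432) and 0.82 (SE 0.23, adjusted p = 0.0440), each in 4 of 4 mice. The call of F3 was lost without mouse 2 (0.63, adjusted p = 0.231), mouse 3 (0.99, adjusted p = 0.0557) or mouse 4 (0.68, adjusted p = 0.151), and that of Plau without mouse 1 (1.07, adjusted p = 0.131), mouse 2 (0.92, adjusted p = 0.141) or mouse 4 (0.83, adjusted p = 0.141). With a mitochondrial limit of 20%, F3 (0.83, adjusted p = 0.0566) and Plau (1.02, adjusted p = 0.0551) lost their calls, and F3 did so with doublets kept (0.79, adjusted p = 0.0562) and with thinned cells (0.46, adjusted p = 0.707). Of 15 receptor genes tested with edgeR, 0 were called, against 2 at an unadjusted p under 0.05. DESeq2 gave an adjusted p for only 4 receptor genes and called 0. Among 16 injury genes, 1 was higher, Havcr1 itself by construction, and 3 were lower, Lcn2, Krt18 and Sox4, of which the latter 2 fall outside the rule for named genes. Of 5 hepatocyte-list genes, Ttr was higher by 0.92 (SE 0.19, adjusted p = 0.00431), or 0.02 with thinned cells (adjusted p = 0.992), while Apob fell by 1.38 (SE 0.19, adjusted p = 3.09e-05) and Fabp1 by 3.32 (SE 0.76, adjusted p = 0.0123). The Fabp1 call was lost without mouse 4 (-2.81, adjusted p = 0.139). List medians were -0.03 for other acute-phase genes, -0.07 for the IL-6 pathway, -0.01 for coagulation, 0.06 for receptors and -0.19 for injury genes, against -0.03 for all genes.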

How the data were processed

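Values are UMI counts per gene and barcode that the authors deposited as 1 matrix per library, made with Cell Ranger 9.0.1 per the file headers. The submitters' processing notes also name Seurat 4.1.1, with no role. The genome build, annotation and aligner are not given in the sources used here. Only the labels say that each library is another mouse. No pair was a repeat deposit by a chi-square test of gene totals (statistic over its degrees of freedom 94.9 at the lowest).

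Barcodes with 500 UMIs, 300 genes and a mitochondrial share under 50% were kept, and the highest doublet scores were removed (0.8% per 1000 cells in each library), leaving 37407 cells. The doublet score, from simulated doublets, was written for this work. Counts per 10000 were log-transformed, and 2000 variable genes, without the acute-phase genes, the gene lists, Havcr1, mitochondrial and ribosomal genes, were reduced to 30 principal components. The 15 exact nearest neighbours of each cell were partitioned with Leiden (leidenalg 0.10.2, scanpy 1.11.5) at resolution 1 into 45 clusters. A cluster was named where 3 or more markers had UMIs in 20% of its cells and lay 2-fold above the other cells. Clusters 20 and 40 were left unnamed by rules added after the clusters were seen, and 7 clusters were unnamed in all. CPM is UMIs per 1000000 UMIs of a class, given for 20 cells or more. Genes differ in length and capture, so levels are compared between classes, gene by gene.

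Counts summed per mouse and cell set were tested with edgeR 4.0.16 (quasi-likelihood, TMM, its low-count filter, Benjamini-Hochberg over all genes, threshold 0.05) in R 4.3.3. The mouse was a block because both sets came from the same mouse. The tests were run on simulated data first, with 1 assumed spread for all genes. In the design of the Havcr1 split, 3.57% of 2-fold and 42.0% of 4-fold changes were called. In that of the tubule classes, 1% and 53.7% were. Of unchanged genes, 0.02% and 0% were called. A gene without a call is therefore not shown to have equal levels. Genes named in the lists are up to 4 per list and comparison with the largest change among those called and changed the same way in every mouse, and 1 gene that this rule names is not reported here. The members, lists and tests were chosen with earlier results of these data known. The alternatives were another normalization, no low-count filter, DESeq2 1.42.0, no block, each mouse left out, a mitochondrial limit of 20%, doublets kept, resolution 2 and cells thinned to 1000 UMIs. Another, added after the clusters were seen, left out cluster 21, with 511 of its 551 cells from mouse 3. Cluster 13, with 844 of its 1088 cells from mouse 4, was kept. Cells are not replicates, and shares and intervals cover counting error only.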

Additional observations from a re-analysis of the deposited data

Results flagged for a closer look

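Over 40 sets of a gene and a cell class, a highest or lowest mouse was singled out where its gap to the nearest other exceeded Dixon's critical value. This was met in 23 sets, each time by mouse 3 as the highest. Chance meets it in about 1 in 20 groups, but the genes were chosen by these same levels, so this is a description and no test. For Fga it was met in thick ascending limb-like (212 CPM) and endothelial-like cells (48.8 CPM). For Fgb the classes were proximal tubule-like (1867 CPM), thick ascending limb-like (15.1), T lymphocyte-like (27.7), macrophage-like (14.6), neutrophil-like (21.6) and endothelial-like cells (40.2). For Fgg they were proximal tubule-like (3446 CPM), thick ascending limb-like (227), T lymphocyte-like (66.3), macrophage-like (33.9) and neutrophil-like cells (44.5). Saa3 met it in proximal tubule-like (472 CPM), thick ascending limb-like (128), T lymphocyte-like (202), macrophage-like (23940), neutrophil-like (4009) and endothelial-like cells (254). Orm1 met it in proximal tubule-like (44.7 CPM) and neutrophil-like cells (565), and Serpina3n in proximal tubule-like (7.50 CPM) and thick ascending limb-like cells (83.8). Classes of 1 mouse share a library, so these values are not independent.

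Barcodes removed for a mitochondrial share of 50% or more, which no comparison used, also held fibrinogen UMIs: 77.3 CPM of Fga, 43.8 CPM of Fgb and 120 CPM of Fgg on average over the 4 mice. In mouse 3, where 25.3% of barcodes were removed this way, the levels were 222, 151 and 319 CPM. No control library is among the samples used here.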

How the results depend on the processing

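The direction and call of named genes held in 406 of 453 recomputed values. The class levels and counts of called genes stayed within 1 SD or 1.5 times in 73 of 81. Class means with a mouse left out could not fail this limit, so the 73 do not measure dependence on 1 mouse. Leaving out 1 of 4 mice moves a mean by less than 1 SD. Saa3 in macrophage-like cells counted as held, though its mean fell from 6395 to 546 CPM without mouse 3. In the Havcr1 split, 284 of 10720 genes were called (2.65%), 436 of 23735 without the low-count filter (1.84%), 171 of 4099 with thinned cells (4.17%; 4 higher, 167 lower) and 133 to 257 with a mouse left out. Without the replicate block (the mouse), 1 gene was called there, and 2337 between proximal tubule-like and thick ascending limb-like cells. DESeq2 called 262 of 2107 and 4543. The share of neutrophil-like cells with Hp was 84.5% after thinning.

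Directions turned in the Havcr1 split for Fga with thinned cells (-0.67), for Fgb without the block (-0.42), without mouse 2 (-0.45), without mouse 4 (-0.03; 0.61 without mouse 3) and with thinned cells (-0.64), and for Fgg with thinned cells (-0.48). Saa3 turned with doublets kept (-0.11) and thinned cells (-0.74). Hp turned without mouse 1 (0.10) or mouse 2 (0.34), and was at -2.02 without mouse 3. Orm1 turned without cluster 21 (-0.58), an alternative chosen after seeing the data. Named genes also lost their call in 35 recomputed values, 5 of 6 in the Havcr1 split with thinned cells, and between the tubule classes Mt2 (-3.08) and Tlr2 (1.27) without the block and Itgb3 (1.71) with DESeq2. The cause was not tested. In proximal tubule-like cells 3 UMIs are 1.25, 2.80, 0.75 and 1.02 CPM in mice 1 to 4, which limits what could be read for Orm1 and Serpina3n.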
